A study of Homo sapiens with 2 samples.

Results

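The HES, HEY and BHLHE repressors are basic helix-loop-helix (bHLH) transcription factors that turn genes off. This set held 10 genes, namely HES1, HES4, HES5, HES6, HES7, HEY1, HEY2, HEYL, BHLHE40 and BHLHE41. Expression values were used for 9 of them, of 17397 genes measured, and the expression of HES5 was not analysed here. The genes were chosen by family, with the difference in FPKM between the WT and MEIS2-/- libraries already known, so their values are given as a description and without a test. The RNA-Seq compared 1 library from wildtype (WT) H1 cells with 1 library from MEIS2-/- H1 cells, both at day 4 of differentiation toward blood. H1 is an established human embryonic stem cell line, and MEIS2 is a homeobox gene that was deleted with CRISPR/Cas9. Cells of both genotypes had been cultured for 2 days with BMP4 (40 ng/ml) and activin A (50 ng/ml), which induce mesoderm, and then for 2 days with bFGF (50 ng/ml) and VEGF (40 ng/ml), which favour endothelium. The MEIS2-/- lines had been infected with a lentivirus, selected with puromycin and expanded from single cells, and the labels do not name the clone that was sequenced.

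Notch is a receptor that is cut when a neighbouring cell presents a ligand. Its freed intracellular part joins the DNA-binding protein RBPJ and switches on a small group of genes, of which the HES and HEY genes are the best known. Their products bind DNA as dimers and recruit corepressors, HES proteins mainly those of the Groucho family. In the embryo they time somite formation, hold back neuronal differentiation, and help to set arterial and hemogenic fates in endothelium, where HES1 acts in the emergence of blood. BHLHE40 and BHLHE41, also called DEC1 and DEC2, are related repressors that respond to low oxygen and take part in the circadian clock.

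The sequence upstream of the start site is shown for 5 genes, because these genes differ in whether they carry the letters bound by RBPJ, the core of a hypoxia response element, both or neither. The sequences are from RefSeq (GRCh38.p14), cover the 250 bases before the start, and are written in the direction of transcription. Those of HES1 and HES4 are at chr3:194135898-194136147 on the plus strand and chr1:1000098-1000347 on the minus strand. Those of BHLHE40 and BHLHE41 are at chr3:4979187-4979436 on the plus strand and chr12:26125038-26125287 on the minus strand. That of HES7 is at chr17:8124107-8124356 on the minus strand. Capitals mark TGGGAA, the short core of an RBPJ site, and ACGTG, the core of a hypoxia response element, on either strand.
HES1: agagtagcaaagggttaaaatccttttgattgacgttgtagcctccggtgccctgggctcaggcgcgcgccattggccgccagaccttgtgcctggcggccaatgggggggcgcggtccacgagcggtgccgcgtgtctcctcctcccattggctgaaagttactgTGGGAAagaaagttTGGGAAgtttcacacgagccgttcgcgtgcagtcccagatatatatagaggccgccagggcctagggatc
HES4: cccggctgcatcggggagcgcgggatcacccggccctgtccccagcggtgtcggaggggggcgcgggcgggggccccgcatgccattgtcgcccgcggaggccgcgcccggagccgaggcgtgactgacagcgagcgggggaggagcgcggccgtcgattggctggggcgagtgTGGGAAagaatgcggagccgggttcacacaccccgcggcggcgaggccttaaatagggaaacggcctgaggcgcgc
BHLHE40: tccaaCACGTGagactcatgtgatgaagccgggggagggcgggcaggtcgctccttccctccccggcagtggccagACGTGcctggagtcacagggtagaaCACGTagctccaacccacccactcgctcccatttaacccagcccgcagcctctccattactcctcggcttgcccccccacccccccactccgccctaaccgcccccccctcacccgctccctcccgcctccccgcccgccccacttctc
BHLHE41: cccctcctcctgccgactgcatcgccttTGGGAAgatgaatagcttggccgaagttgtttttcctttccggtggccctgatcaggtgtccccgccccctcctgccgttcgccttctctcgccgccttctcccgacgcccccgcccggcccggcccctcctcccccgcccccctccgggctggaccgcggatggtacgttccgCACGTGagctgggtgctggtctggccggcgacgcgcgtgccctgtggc
HES7: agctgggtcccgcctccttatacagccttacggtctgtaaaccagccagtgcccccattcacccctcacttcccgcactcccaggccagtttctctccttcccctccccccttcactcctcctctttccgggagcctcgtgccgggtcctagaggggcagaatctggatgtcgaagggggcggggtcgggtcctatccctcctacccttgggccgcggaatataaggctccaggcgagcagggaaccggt

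Windows of 300 bases, from 250 before to 50 after the start, were searched on both strands for every gene of the set except HEY1, 9 in all with HES5 among them. The longer RBPJ core GTGGGAA, which contains TGGGAA, was found in HES1, HES4, HES5, HEY2 and HEYL, and in 6.28% of 27305 windows of all genes. In HES1 it began 85 bases before the start, and a further TGGGAA began 70 bases before it. In HES4 the core began 77 bases before the start, and in HES5 copies began 224 and 81 bases before it. HEY2 also held a pair, of which the second ran across the start itself. Neither core was found in HES6 or HES7. A lone TGGGAA, which 24.3% of all windows held, began 222 bases before the start of BHLHE41. The letters ACGTG were found in the windows of BHLHE40 and BHLHE41 but of none of the other 7 genes searched, and in 21.6% of all windows. BHLHE40 had 4 matches and BHLHE41 had 2. In each, a pair of matches was the E box CACGTG read on both strands. The E box was in 7.43% of all windows. HES1 held 4 copies of the N box CACNAG, a sequence that HES proteins bind, and HES7 held 1. At least 1 N box was present in 38.0% of all windows. The class C site CACGCG, another HES binding sequence, was in HES1 and BHLHE41 and in 11.4% of all windows. Such matches describe the letters in these windows and do not show that a factor bound there. The share of G and C bases ran from 59.0% (HES1) to 79.0% (HEY2) in the 9 windows, against a median of 58.3% over all windows. The shares of all windows with a motif were not adjusted for this, and they include genes that were not expressed here.

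**Figure D1:**
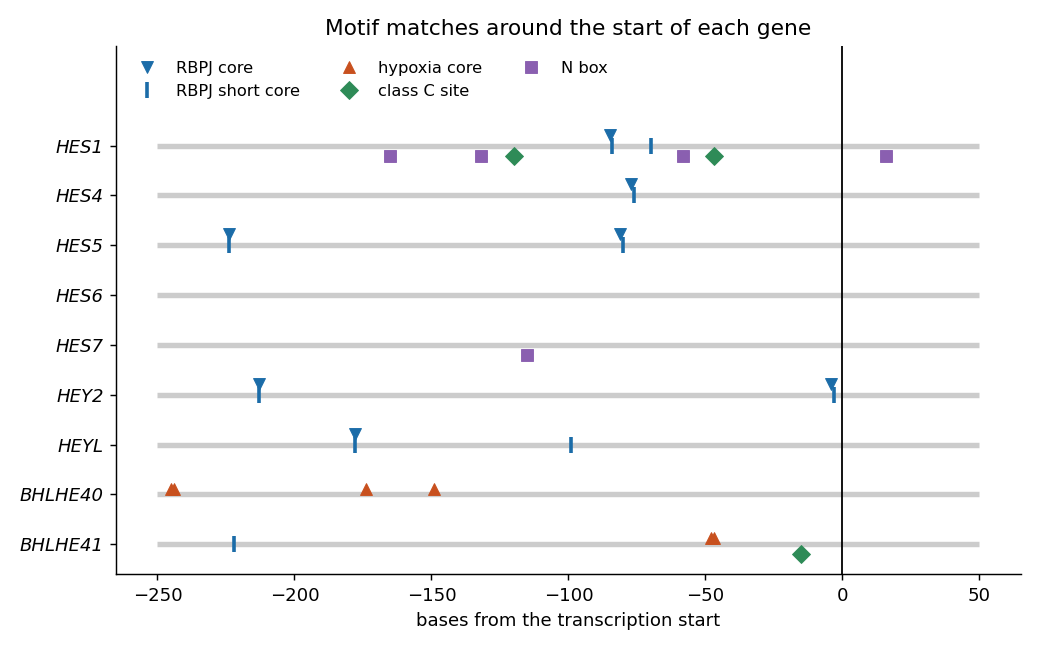
Positions of motif matches in the windows of the 9 genes searched, HES5 included and HEY1 not, in bases from the transcription start on the x axis, with 1 line per gene. RBPJ cores (GTGGGAA, with the short core TGGGAA) lie on HES1, HES4, HES5, HEY2 and HEYL, a lone short core lies on BHLHE41, and the hypoxia core ACGTG lies on BHLHE40 and BHLHE41.

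Expression was deposited as FPKM, a count of fragments scaled by transcript length and by the mapped fragments of the library. FPKM corrects for length, so levels can be compared between genes. HES4 and HES1 were the most highly expressed of the 9 genes with values in both libraries, followed in the same order by HES6, BHLHE40 and HEY2. HES4, HES1 and HES6 together made up 73.1% of the summed FPKM of the 9 genes in WT cells and 77.5% in MEIS2-/- cells. The order of the other 4 genes differed. In WT cells it was HES7, HEY1, BHLHE41 and HEYL, and in MEIS2-/- cells it was HEY1, HEYL, HES7 and BHLHE41. Each genotype has 1 library, which leaves the spread between cultures unknown, so neither neighbouring levels nor differences between the genotypes have a replicate check. In these bulk libraries, fewer cells that express a gene and less RNA per cell cannot be told apart.

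**Figure D2:**
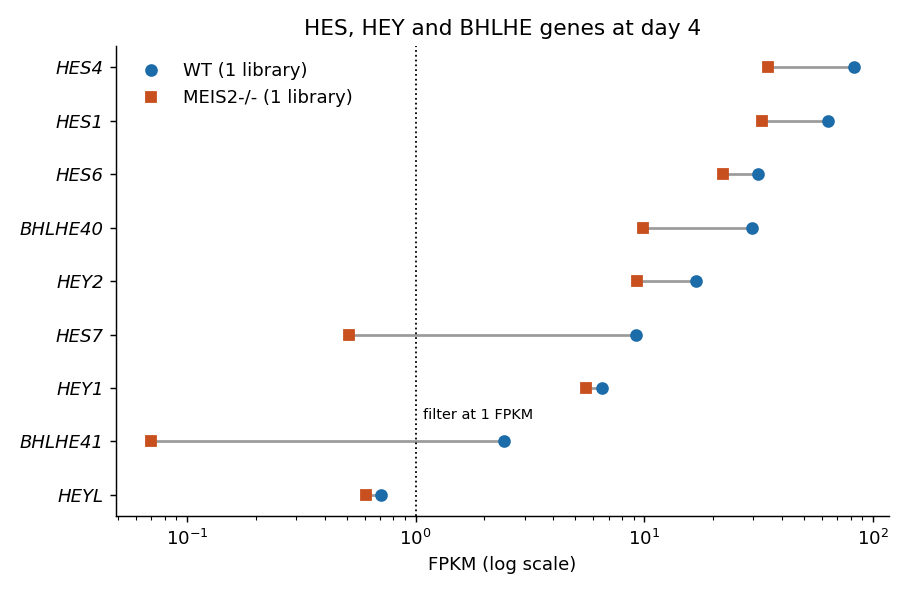
FPKM on a log axis for the 9 genes with values, with circles for the WT library and squares for the MEIS2-/- library, 1 library each. Every square lies to the left of its circle, and the longest gaps are those of HES7 (9.24 and 0.51 FPKM) and BHLHE41 (2.44 and 0.07 FPKM).

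All 9 genes had lower FPKM in MEIS2-/- cells than in WT cells. A log2 fold change is the log2 ratio of the MEIS2-/- to the WT value, each raised by 0.1 FPKM, and so understates changes of low genes. A change was counted from 2-fold, over genes that reached 1 FPKM in either library. Of the 9 genes 8 passed this filter, and 4 of them, HES4, HES7, BHLHE40 and BHLHE41, were at least 2-fold lower. None was at least 2-fold higher. Among all 13075 genes compared, 7.97% were at least 2-fold lower and 7.81% at least 2-fold higher. The median log2 fold change was -1.10 over the 8 genes and 0.12 over all genes compared. Because the genes were chosen with these values known, the counts are no evidence that the family differs from other genes.

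HES1, the classical Notch target that acts in the emergence of blood, had 63.93 FPKM in the WT library and 32.86 FPKM in the MEIS2-/- library. It kept 51.4% of its WT level, a log2 fold change of -0.96, just short of the threshold. After rescaling so that the median log2 ratio was 0, its log2 fold change was -1.07, past the threshold. HES4, a close relative of HES1 that mice lack, had 82.55 FPKM in the WT library and 34.72 FPKM in the MEIS2-/- library. It kept 42.1%, a log2 fold change of -1.25, and had the largest difference of the 9 genes in FPKM. HES4 was thus 1.29 times as high as HES1 in WT cells and 1.06 times as high in MEIS2-/- cells.

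HES6 differs from the other HES proteins in that it opposes HES1 and promotes differentiation. It had 31.56 FPKM in the WT library and 22.18 FPKM in the MEIS2-/- library, with a log2 fold change of -0.51. HES7 is a core gene of the segmentation clock, whose expression oscillates in the presomitic mesoderm. It had 9.24 FPKM in the WT library and 0.51 FPKM in the MEIS2-/- library. Only 5.52% of its WT level was left, a log2 fold change of -3.94, and it ranked 17 of the 13075 genes compared, counted from the largest decrease. HES7 was 1.41 times as high as HEY1 in WT cells and 0.0912 times as high in MEIS2-/- cells.

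The 3 HEY genes had smaller fold differences than HES4 and HES7. HEY2, an arterial and cardiac regulator, had 16.88 FPKM in the WT library and 9.31 FPKM in the MEIS2-/- library, with a log2 fold change of -0.85. HEY1, which acts with HEY2 in arterial endothelium, had 6.55 FPKM in the WT library and 5.59 FPKM in the MEIS2-/- library, with a log2 fold change of -0.22. HEYL, at 0.71 FPKM and 0.61 FPKM, did not reach the filter in either library. None of the 3 was at least 2-fold lower under any pseudocount or scaling tried.

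Both BHLHE genes passed the 2-fold threshold. BHLHE40 had 29.58 FPKM in the WT library and 9.91 FPKM in the MEIS2-/- library, with a log2 fold change of -1.57. BHLHE41 had 2.44 FPKM in the WT library and 0.07 FPKM in the MEIS2-/- library, with a log2 fold change of -3.90. The level of BHLHE41 in MEIS2-/- cells lay below the pseudocount, so this value depended on it and ran from -4.94 to -1.68 over the pseudocounts and scalings tried. In the GENCODE 29 annotation, exons of SSPN, on the opposite strand, cover 162 bases of BHLHE41 exons. SSPN itself had 0.20 FPKM in the WT library and 0.08 FPKM in the MEIS2-/- library. Whether the counting used strand is not given in the sources used here.

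**Figure D3:**
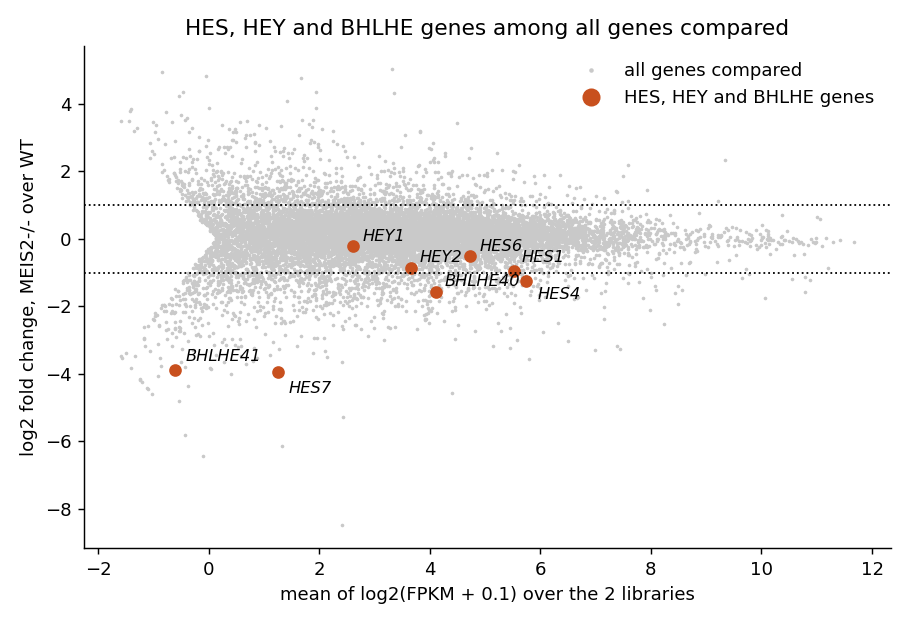
Log2 fold change (MEIS2-/- over WT, y axis) against the mean of log2(FPKM + 0.1) over both libraries (x axis), with the 13075 genes compared in grey and the 8 HES, HEY and BHLHE genes that passed the filter marked. Dotted lines mark 2-fold, and all 8 genes lie below 0, with HES7 and BHLHE41 near -4.

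Of the related genes outside the set, HES2 had values of 1.31 FPKM in the WT library and 1.02 FPKM in the MEIS2-/- library, with a log2 fold change of -0.33. HES3 and HELT were not analysed here. MEIS2 itself had 10.85 FPKM in the WT library and 3.44 FPKM in the MEIS2-/- library, and a value per gene does not show which exons the remaining reads came from.

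The Notch pathway was described through 37 genes in 6 lists. Of these, 34 passed the filter, of which 6 were at least 2-fold lower and 4 at least 2-fold higher, with 17 lower and 17 higher by any amount. Among all genes compared, 7.97% were at least 2-fold lower and 7.81% at least 2-fold higher. The median log2 fold change of the 34 genes was -0.01, which pools lists that differed. It was -0.22 for the receptors, -0.89 for the ligands and -0.91 for the other Notch targets, and from 0.18 to 0.24 for the remaining lists. Among the receptors, NOTCH1 had 25.55 FPKM in the WT library and 10.85 FPKM in the MEIS2-/- library, with a log2 fold change of -1.23. NOTCH2 (-0.22) and NOTCH3 (0.50) changed less than 2-fold. NOTCH3 was the highest receptor in both libraries, with 44.74 FPKM in the WT library and 63.13 FPKM in the MEIS2-/- library. NOTCH4, an endothelial receptor, was under the filter, at 0.72 FPKM and 0.34 FPKM. The summed FPKM of the receptors was 80.92 in WT cells and 82.81 in MEIS2-/- cells.

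The ligands differed in both directions. DLL1 had 5.40 FPKM in the WT library and 15.47 FPKM in the MEIS2-/- library, or 286% of its WT level. DLL3, which acts inside the cell as an inhibitor of Notch and is part of the segmentation clock, had 37.74 FPKM in the WT library and 8.09 FPKM in the MEIS2-/- library, with a log2 fold change of -2.21. JAG2 had 9.89 FPKM in the WT library and 3.38 FPKM in the MEIS2-/- library, with a log2 fold change of -1.52. DLL1 was thus the 1 ligand at least 2-fold higher, while DLL3, JAG2 and the ligand-like DLK2 (-1.01) were at least 2-fold lower. The related DLK1 (-0.77) was not. JAG1 was at 6.87 FPKM and 6.37 FPKM. DLL4, the main arterial ligand, was under the filter, at 0.16 FPKM in the WT library and 0.25 FPKM in the MEIS2-/- library.

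The genes that modify and cut Notch had median log2 fold changes of 0.24 and 0.18, against 0.12 over all genes compared. None of the 4 glycosyltransferase genes that passed was changed 2-fold, including LFNG, which tunes the response to ligands, with 20.22 FPKM in the WT library and 23.45 FPKM in the MEIS2-/- library. The log2 fold changes of RFNG (-0.11), POFUT1 (0.27) and POGLUT1 (0.55) were also under the threshold. Of the 8 processing genes, PSEN2 (log2 fold change 1.67) and APH1B (1.12), which encode subunits of gamma-secretase, were at least 2-fold higher. The proteases ADAM10 (0.29) and ADAM17 (-0.10) and the subunits NCSTN (0.21), APH1A (0.08) and PSENEN (-0.14) were not changed 2-fold. The 8 genes of the nuclear complex had a median of 0.19. RBPJ had 9.81 FPKM in the WT library and 12.11 FPKM in the MEIS2-/- library, and CREBBP, a coactivator, was the 1 gene of this list at least 2-fold higher (1.12). The coactivators MAML1 (0.13), MAML2 (-0.49), MAML3 (-0.57) and EP300 (0.45) and the corepressor SPEN (0.24) were not. Of 5 other genes known as Notch targets, NRARP, which feeds back on the receptor, had 12.08 FPKM in the WT library and 6.39 FPKM in the MEIS2-/- library, with a log2 fold change of -0.91. DTX1 (-1.60) and MYC (-1.42) were at least 2-fold lower, whereas CCND1 (-0.20) and DTX4 (0.52) were not changed 2-fold.

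**Figure D4:**
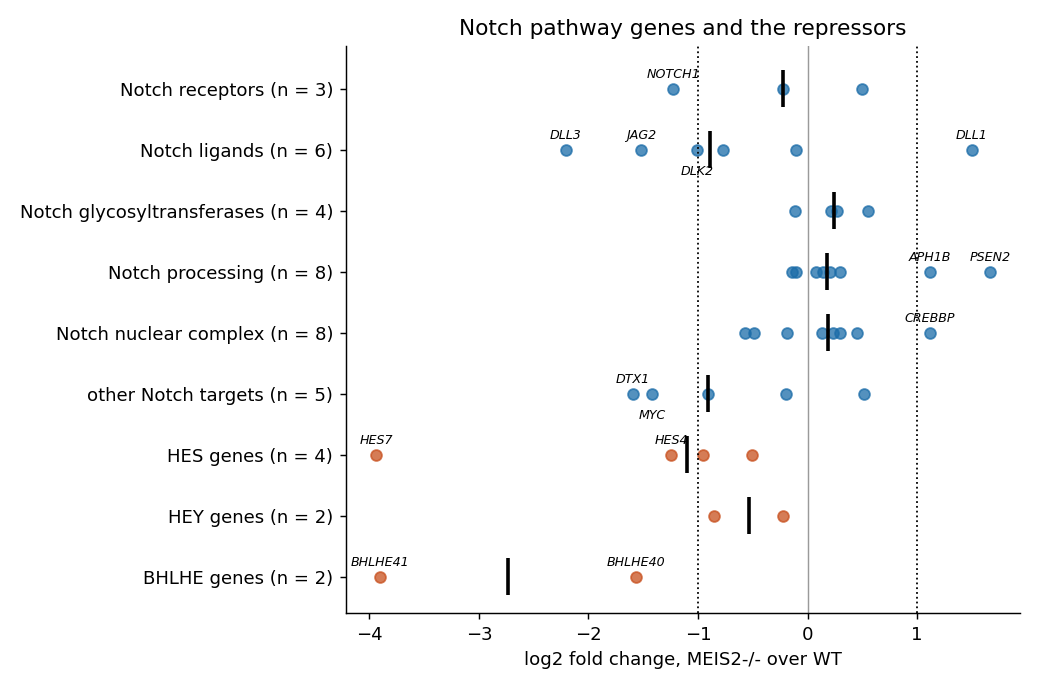
Log2 fold change (MEIS2-/- over WT, x axis) of each gene that passed the filter, with 1 row per list, black bars for medians, dotted lines at 2-fold and names for genes past it. Processing and nuclear complex genes lie mostly above 0, ligands lie on both sides of 0, and the HES, HEY and BHLHE genes all lie below 0. The median of all genes compared, not drawn, is 0.12.

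Partners of the repressors were compared next. Of 11 corepressor genes, TLE1, a Groucho homologue, was at least 2-fold higher, with 12.02 FPKM in the WT library and 28.69 FPKM in the MEIS2-/- library, and TLE6 was at least 2-fold lower, with 1.46 FPKM and 0.41 FPKM. The other 9 changed less than 2-fold, and the list had a median of -0.02. ID proteins bind other bHLH proteins and keep them from DNA. None of the 7 ID and E protein genes was changed 2-fold, with ID1 at 664.99 FPKM in the WT library and 837.65 FPKM in the MEIS2-/- library and ID3 at 529.13 FPKM and 321.63 FPKM.

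HES7 was set beside genes of the presomitic mesoderm, where it oscillates. Of 11 somite clock and presomitic mesoderm genes, 6 passed the filter, 4 were at least 2-fold lower and 1 was at least 2-fold higher. Besides DLL3, the genes at least 2-fold lower were TBX6, TCF15 and MESP2. TBX6 had 5.38 FPKM in the WT library and 2.03 FPKM in the MEIS2-/- library. TCF15 was at 3.98 FPKM and 1.37 FPKM, and MESP2 was at 1.92 FPKM and 0.60 FPKM. The gene at least 2-fold higher was DLL1, with 5.40 FPKM in the WT library and 15.47 FPKM in the MEIS2-/- library. LFNG, also in this list, was higher by less than 2-fold, at 20.22 FPKM and 23.45 FPKM. The summed FPKM of the 3 presomitic markers TBX6, MSGN1 and MESP2 was 7.30 in WT cells and 3.31 in MEIS2-/- cells. MSGN1, a defining marker, ran the other way, listed at 0 in the WT library and at 0.68 FPKM in the MEIS2-/- library, under the filter. HES7 kept 5.52% of its WT level and these markers 45.3% of their sum, and the part of such cells in the HES7 value was not tested.

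Of 9 arterial genes, 7 passed the filter, with NRP1 at least 2-fold lower (log2 fold change -1.51) and CXCR4 at least 2-fold higher (1.07), and the list had a median of -0.54. The summed FPKM of the 9 was higher in MEIS2-/- cells, at 261.61 in WT cells and 374.24 in MEIS2-/- cells. Its highest gene was SOX17, also an endoderm marker, at 141.01 FPKM and 264.03 FPKM. EFNB2, an arterial gene often placed under Notch control, had 14.04 FPKM in the WT library and 14.61 FPKM in the MEIS2-/- library. Of 5 venous genes 4 passed, 1 of them, FLT4, at least 2-fold lower (-1.67). Of 7 endothelium markers 6 passed and 4 were at least 2-fold lower. CLDN5, the marker under the filter, was higher, at 0.28 FPKM in the WT library and 0.65 FPKM in the MEIS2-/- library. The summed FPKM of the 7 was 376.06 in WT cells and 84.20 in MEIS2-/- cells, mostly KDR. Of 12 cardiac mesoderm genes 10 passed and 5 were at least 2-fold lower, among them HAND2 (-2.44) and NKX2-5 (-1.85). The 4 cardiac markers TNNT2, MYL7, NKX2-5 and TBX5 summed to 139.09 FPKM and 51.24 FPKM. HEY1 and HEY2 are expressed in both endothelium and heart. They kept 85.3% and 55.2% of their WT level, against 22.4% of the endothelium marker sum and 36.8% of the cardiac marker sum. The 6 endothelium markers that passed kept from 19.1% (KDR) to 60.8% (PECAM1) of their WT level. The 3 cardiac markers that passed kept from 27.7% (NKX2-5) to 71.5% (TNNT2). HEY2 lay within both ranges and HEY1 above them. The part of either cell type in the values of HEY1 and HEY2 was not tested.

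BHLHE40 and BHLHE41 were set beside genes of the responses they belong to. Of 10 hypoxia response genes 9 passed the filter, 7 were at least 2-fold lower and none was at least 2-fold higher, with a median of -1.24. ANKRD37 (-5.30), P4HA1 (-2.99) and BNIP3 (-2.76) had the largest differences, while ADM was higher (0.50). The summed FPKM of this list was 783.69 in WT cells and 300.29 in MEIS2-/- cells, 38.3% of the WT sum, and BHLHE40 kept 33.5%. The oxygen level of the cultures was not tested. Of 16 circadian genes 12 passed and 3 were at least 2-fold lower, namely CIART (-2.00), NR1D1 (-1.12) and DBP (-1.10), which all oscillate under CLOCK and BMAL1. CLOCK itself had 1.51 FPKM in the WT library and 1.54 FPKM in the MEIS2-/- library, and BMAL1 was under the filter, at 0.99 FPKM and 0.91 FPKM. The circadian list had a median of -0.35.

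**Figure D5:**
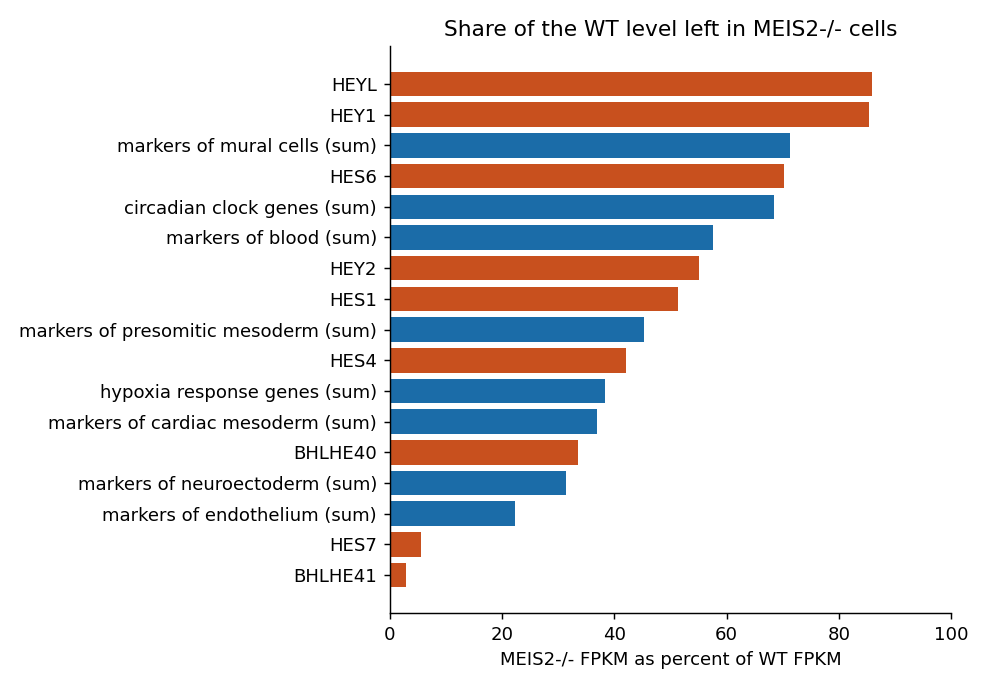
FPKM in the MEIS2-/- library as a percent of that in the WT library, for the 9 genes (orange) and for the summed FPKM of 8 gene lists (blue), with bars starting at 0. BHLHE41 (2.87%) and HES7 (5.52%) lie below every list drawn, and HEY1 and HEYL lie above. The arterial genes and the endoderm and pluripotent cell markers, whose sums were higher in MEIS2-/- cells, are among the lists not drawn.

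Markers of further cell types moved as well. The pluripotency markers POU5F1, NANOG and SOX2 summed to 302.87 FPKM in the WT library and 1525.07 FPKM in the MEIS2-/- library, nearly all of it POU5F1, and SOX2 was at 0.09 FPKM and 0.15 FPKM. All 4 endoderm markers were higher, 2 of them at least 2-fold, with summed FPKM of 184.77 and 322.37. Mural cell markers summed to 286.34 FPKM and 204.05 FPKM, with 1 of 3 at least 2-fold lower, and blood markers to 8.83 FPKM and 5.08 FPKM, with 2 of the 3 that passed at least 2-fold lower. Of the neuroectoderm markers, PAX6 was at 0.04 FPKM and 0.09 FPKM, SOX3 was listed at 0 in the WT library and at 0.19 FPKM in the MEIS2-/- library, and OTX2, also expressed in endoderm, was at least 2-fold lower (-1.76). The part of these shifts in the values of the HES, HEY and BHLHE genes was not tested.

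The motifs in the start site windows were also set against all genes compared, of which 10607 had a window. Of the 609 genes with the RBPJ core GTGGGAA, 5.25% had at least 2-fold lower FPKM after MEIS2 deletion, against 7.13% of the 9998 genes without it. Of the 2793 genes with ACGTG, 6.62% were at least 2-fold lower, against 7.17% of the 7814 genes without it. For the N box the shares were 7.52% of the 3591 genes with it and 6.77% of the 7016 genes without it. With the short RBPJ core, the E box and the class C site the shares ran from 5.99% to 6.67%, and without them from 7.06% to 7.31%. These shares were not tested against each other.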

How the data were processed

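RNA-Seq libraries had been made from total RNA with an Illumina TruSeq kit, and the paper names BGI for the sequencing. The authors deposited 1 FPKM value per gene and library, rounded to 2 decimals. The submitters' processing notes name BWA, Bowtie, RSEM and hg19, without versions. The tables hold no read counts, and whole reads could not be recovered from low values of single-transcript genes (agreement 0.11 in WT and 0.16 in MEIS2-/-, where 1 is complete), so depth is unknown and no counting interval is given.

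NCBI Gene numbers were matched to RefSeq symbols for 17365 of 17397 genes. FPKM was used as deposited, and as a relative measure it shifts for every gene when a few abundant genes change. With 1 library per genotype, there was no test, and changes were counted from 2-fold with a pseudocount of 0.1 FPKM among genes with at least 1 FPKM in a library. The members and lists were chosen with earlier results of these data known. The genes named are the members, HES2, HES3 and HELT, MEIS2, the Notch genes and, in the other lists, defining genes and up to 3 with the largest change. A few genes that this rule names are not reported here. SSPN was named after its overlap was seen. No likeness of pattern was computed, since 2 libraries give 1 difference per gene. Alternatives were other pseudocounts, filters, thresholds and scalings, the trimmed mean of log ratios (TMM) dropping 30% of log ratios and 5% of levels per side. The counting was run on copied WT values with 4-fold changes planted in genes at 5 FPKM or more and no noise added. That checks the arithmetic only, and not how reliable counts from 1 library per genotype are. RefSeq windows came from GRCh38.p14 and exon overlaps from GENCODE 29, which may differ from the gene models behind the FPKM. Tools were Python 3.11.15, numpy 2.4.6, pandas 2.3.3 and matplotlib 3.10.9.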

Additional observations from a re-analysis of the deposited data

How the results depend on the processing

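No paired analysis was possible because each genotype has 1 library, and for the same reason no library could be left out. The 4 HES, HEY and BHLHE genes at least 2-fold lower became 2 at a threshold of 4-fold (HES7 and BHLHE41), 5 with either scaling, which added HES1, and 3 with a filter at 5 FPKM, which removed BHLHE41. The count was 6 at 1.5-fold. The count of higher genes among them stayed 0 under the 8 alternatives run. None of these could raise it, since all had lower FPKM in MEIS2-/- cells. The median log2 fold change of -1.10 became -1.08 with a pseudocount of 1 FPKM, -0.96 without a filter and with a filter at 5 FPKM, -1.22 with the median log2 ratio set to 0 and -1.21 with TMM. Those scalings lowered MEIS2-/- values by 0.12 and 0.10 on the log2 scale. Over all genes, the 1042 lower and 1021 higher genes became 693 and 623 with a pseudocount of 1 FPKM, 598 and 552 with a filter at 5 FPKM, 1890 and 2351 at 1.5-fold, and 241 and 193 at 4-fold. They were 1197 and 833 with the median log2 ratio set to 0 and 1179 and 853 with TMM. Without a filter, 1512 genes were lower and 1559 higher. These changes follow from how each alternative is built, by damping low values, testing fewer or more genes, or moving the threshold. The log2 fold changes of the 9 genes could not turn positive under the pseudocounts and scalings tried. An equal pseudocount keeps the order of the 2 values, and both scalings lowered MEIS2-/- values. The size of the changes did vary, with HES7 between -4.15 and -2.76, BHLHE40 between -1.68 and -1.49 and HES4 between -1.36 and -1.23. Depth is unknown, so the precision of low values such as BHLHE41 in MEIS2-/- cells is not known.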

Other observations

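Genes of BMP feedback, a pathway that can also switch on HES and HEY genes, were compared as a further group. Of 5 such genes all passed the filter, and MSX1 was at least 2-fold lower, with 187.93 FPKM in the WT library and 84.26 FPKM in the MEIS2-/- library, with a log2 fold change of -1.16. SMAD6 had 175.82 FPKM in the WT library and 128.11 FPKM in the MEIS2-/- library. SMAD7, an inhibitor of the pathway like SMAD6, was at 28.23 FPKM and 22.91 FPKM. BAMBI, a decoy receptor, was at 543.77 FPKM and 465.85 FPKM. MSX2, the 1 gene of this group that was higher, was at 82.95 FPKM and 102.95 FPKM, so the median log2 fold change of -0.30 did not describe each gene alike. ID4 had 22.87 FPKM in the WT library and 43.59 FPKM in the MEIS2-/- library, opposite in direction to ID3.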
